A study of Mus musculus with 24 samples.

Results

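Shelterin is the protein complex that coats the ends of chromosomes. The 6 of its mouse genes described here are Tinf2, Acd, Pot1a, Terf1, Terf2 and Terf2ip. The genes were taken by symbol from a table that names 18193 genes, and all 16 of their probe sets are reported, of which 14 passed a filter on low values. Tinf2 was chosen by its measured light effect in these same samples, a transcript level that was higher after a light pulse, most of all in the ventral suprachiasmatic nucleus. Its light effects are therefore given as a description, without a test. The other 5 genes were added as the partners of its protein, and their 12 tested probe sets can be tested for an effect of light.

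The suprachiasmatic nucleus (SCN) lies in the hypothalamus and is the seat of the central circadian clock of mammals. C57BL/6 mice, obtained at 8 weeks of age and housed singly, spent at least 7 days in constant dim red light. Light for 30 min, timed to advance the clock, or a sham treatment followed, and tissue was taken after a further 3.5 h. Laser microdissection of stained brain cryosections 25 µm thick separated the ventral (core), central (middle) and dorsal (shell) SCN. This gave 6 groups (light and sham in each of 3 regions) with 4 arrays each, and all animals shared the strain and the dim red light. The RNA, to which 20 ng of bacterial ribosomal RNA had been added as carrier, was amplified and labelled in 2 batches. Replicates 1 and 2 of each group were in batch A, and replicates 3 and 4 in batch B. Whether animals were pooled, and which arrays came from the same animal, was not stated in the labels, so p-values measure only the spread between these samples, which may be technical.

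Within shelterin, TRF1 and TRF2, the products of Terf1 and Terf2, bind the double-stranded telomere repeat. TIN2, the product of Tinf2, bridges both of them and also holds TPP1, the product of Acd. TPP1 in turn carries POT1a, which binds the single-stranded overhang, and it recruits telomerase. RAP1, the product of Terf2ip, sits on TRF2. Together the complex keeps the DNA damage kinases ATM and ATR from acting on chromosome ends. Adult SCN neurons do not divide.

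Light reaches SCN neurons as glutamate released by retinal fibres, and the resulting calcium signal activates CREB, a factor that binds the cAMP response element. The promoters of the genes are shown for that reason. RefSeq promoter windows of assembly GRCm38.p6, from 250 bases before to 50 bases after the transcription start, were at hand for 5 of the 6 genes. The first sequence below is the 250 bases before the start of Tinf2, on the minus strand at chr14:55681818-55682067. The second is the 60 bases that end with the start base of Pot1a, also on the minus strand, at chr6:25809218-25809277. Capitals mark the full cAMP response element TGACGTCA and its shorter form TGACG on either strand.

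Tinf2: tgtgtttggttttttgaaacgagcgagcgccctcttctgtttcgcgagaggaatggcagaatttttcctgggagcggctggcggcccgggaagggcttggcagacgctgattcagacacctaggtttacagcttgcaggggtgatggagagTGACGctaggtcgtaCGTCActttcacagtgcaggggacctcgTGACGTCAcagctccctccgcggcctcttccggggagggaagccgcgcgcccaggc
Pot1a: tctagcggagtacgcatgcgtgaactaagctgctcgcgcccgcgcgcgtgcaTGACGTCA

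The Tinf2 window held a full element that began 56 bases before the start, at chr14:55681866-55681873, and it was found in 1.79% of the 32841 promoter windows of 300 bases. It also held 5 matches of the shorter form, 2 of them inside the full element and 1 just after the start. At least 5 such matches occurred in 0.0548% of the windows, and at least 1 in 20.8%. The cutoff of 5 was set by the count in the Tinf2 window itself, so nothing is read from that share. An AP-1 match (TGANTCA) lay 143 bases before the Tinf2 start, and this motif was found in 7.81% of the windows. Pot1a held a full element 7 bases before its start. Terf2ip had a STAT match (TTCCNGGAA, in 1.15% of the windows) 4 bases before its start. Both windows of Terf2 and the window of Acd held none of the motifs searched, which also included CACGTG (E-box, 7.15% of the windows), GCGTGGGCG (Egr, 0.612%) and the serum response element (1.63%). Both strands were searched, and a match is a run of letters, not a shown binding site.

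The values are the log2 expression values that the authors deposited, with 1 value for each probe set and array. The array medians were 3.52 to 3.62 in batch A and 4.81 to 5.07 in batch B, so levels are compared within a batch or with batch as a term. The neuropeptide gene Vip, which marks the core, was higher in ventral than in dorsal sham arrays by 3.97 ± 0.422 (SE) on the log2 scale (limma adjusted p = 1.13e-05). Avp, which marks the shell, was lower in central than in dorsal sham arrays by a difference of -2.10 ± 0.353 (limma adjusted p = 0.00208). Avp did not pass for ventral against dorsal, and Vip was also higher in central than in dorsal sham arrays. Of 10 tested marker genes of SCN neurons, 0 passed for ventral against central sham arrays. One library stood apart. Dorsal light replicate 4 had a Gapdh signal that was higher by 5.41 at the 3′ than at the 5′ end, as short cDNA gives, against 0.887 to 1.07 on the other 11 arrays of batch B and 2.02 to 3.28 in batch A. Its median correlation with arrays of its batch was 0.913, against 0.977 to 0.987 for the others of batch B. In batch A the lowest was 0.955, on central light replicate 2, against 0.976 to 0.982 for the others. The central results include central light replicate 2. Dorsal light effects of the shelterin probe sets are also given without dorsal light replicate 4. Values for marker genes, other telomere genes and neighbours of Tinf2 include that array. So do the batch-centred levels, the correlations and the genes most like Tinf2.

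Tinf2 was measured by probe sets 1451163_at and 1437166_at. The first of these has the higher values and carries the account of the gene. In the ventral SCN its log2 values on the sham arrays were 4.50 and 4.31 in batch A and 5.69 and 6.06 in batch B. On the ventral light arrays they were 6.56 and 7.01 in batch A and 8.09 and 8.31 in batch B. Every ventral light array lay above both ventral sham arrays of its batch, as was so for 5.14% of all tested probe sets. The light effect was 2.35 ± 0.185 (SE; 4 light and 4 sham arrays), a 5.11-fold higher level, with 2.38 in batch A and 2.33 in batch B. In these bulk samples, more cells with the transcript and more transcript per cell cannot be told apart.

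In the central SCN the sham arrays held 4.51 and 4.30 in batch A and 5.86 and 6.22 in batch B for Tinf2. The central light arrays held 5.34 and 5.36 in batch A and 7.40 and 7.50 in batch B. Light lay above sham in both batches, as it did for 2.86% of all tested probe sets in this region. The central light effect was 1.18 ± 0.185, or 2.27-fold, with 0.95 in batch A and 1.41 in batch B.

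In the dorsal SCN the Tinf2 values were 4.68 and 4.95 on the sham arrays of batch A, and 6.63 and 6.94 on those of batch B. The dorsal light arrays gave 5.90 and 5.55 in batch A and 7.20 and 6.85 in batch B. Light lay above sham in batch A, while the groups overlapped in batch B; in 3.69% of all probe sets light was above in both. The dorsal light effect of Tinf2 was 0.58 ± 0.185, or 1.49-fold, with 0.91 in batch A and 0.24 in batch B. Without dorsal light replicate 4 it was 0.70 ± 0.184.

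**Figure D1:**
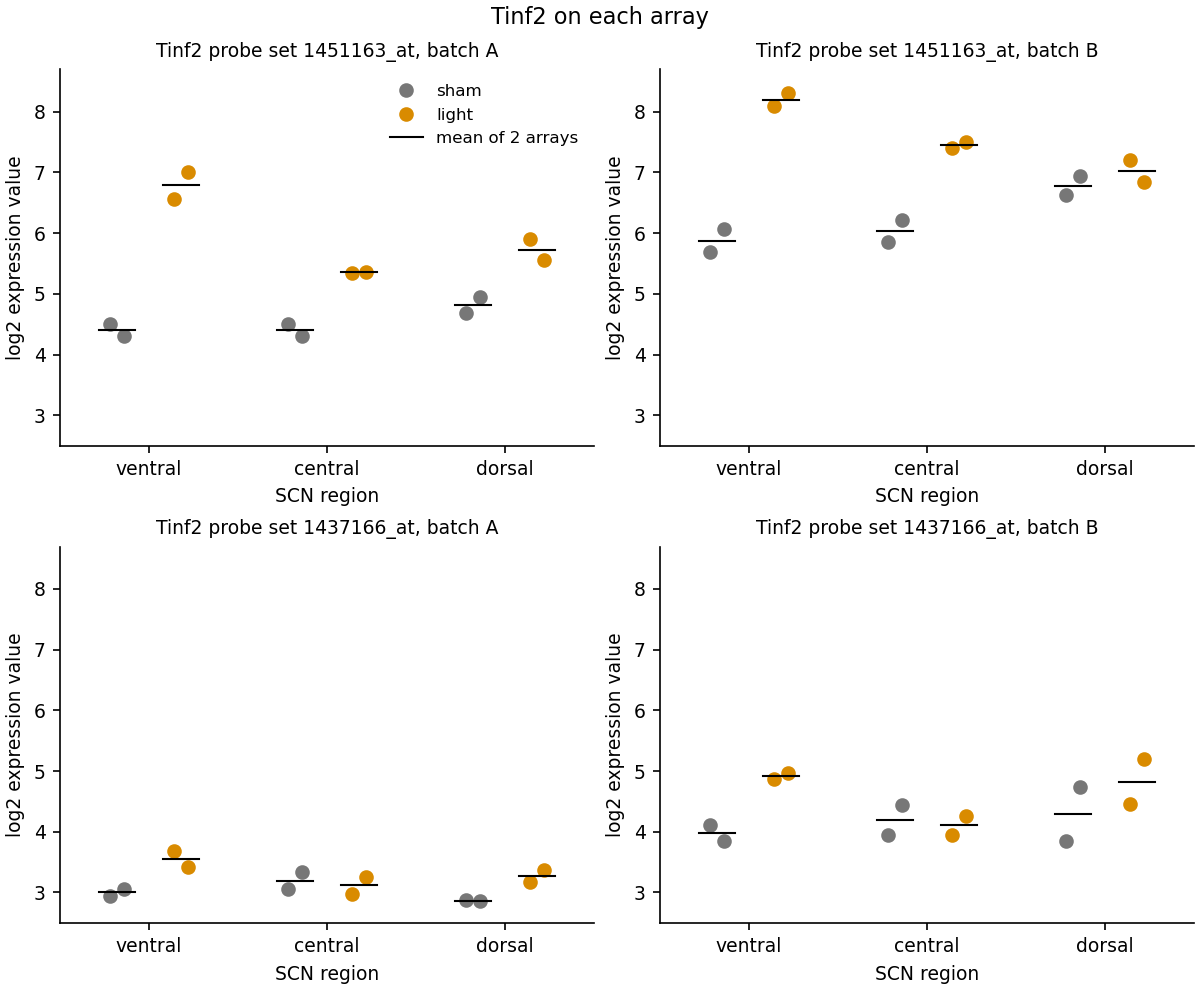
Deposited log2 value of Tinf2 on each of the 24 arrays by region and treatment, with 1451163_at in the upper and 1437166_at in the lower panels, batch A on the left and batch B on the right. Points are arrays and bars the mean of 2 arrays. For 1451163_at in the ventral SCN the light arrays sit at 6.56 and 7.01 (batch A) and at 8.09 and 8.31 (batch B), above all sham arrays of the same batch, while in the dorsal SCN of batch B the light arrays at 7.20 and 6.85 overlap the sham arrays at 6.63 and 6.94.

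The light effect on Tinf2 thus fell in the order ventral, central, dorsal. The ventral effect exceeded the dorsal one by 1.78 ± 0.262, with 1.47 in batch A and 2.09 in batch B, and the central one by 1.17 ± 0.262, with 1.43 in batch A and 0.91 in batch B. The central effect exceeded the dorsal one by 0.60 ± 0.262, which came from batch B at 1.17, while batch A gave 0.04. The step between central and dorsal was therefore seen in 1 batch, and the step from ventral to central in both. Batch B holds dorsal light replicate 4. Without that array the central effect exceeded the dorsal one by 0.48 ± 0.250, and the ventral effect exceeded it by 1.65 ± 0.250. The probe set of Tinf2 was the single probe set of the table whose light effect passed the test for ventral against dorsal (limma adjusted p under 0.05; 0.00323% of 30983), and, since the gene was chosen with that result known, nothing is read from it. For the differences of ventral against central and of central against dorsal, 0.0% of the probe sets passed in limma, and 0.855% and 2.69% had an unadjusted p under 0.05. An order of ventral over central over dorsal by value alone was found for 22.3% of all tested probe sets.

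The second Tinf2 probe set, 1437166_at, was dim, with log2 values over 4 on 8 of the 24 arrays. Its ventral sham values were 2.95 and 3.06 in batch A and 4.12 and 3.85 in batch B, and its ventral light values 3.68 and 3.41 in batch A and 4.87 and 4.97 in batch B. The ventral light arrays again lay above the sham arrays in both batches (5.14% of all tested probe sets), by 0.74 ± 0.205. In the central SCN the probe sets of Tinf2 disagreed, because 1437166_at gave -0.08 ± 0.205. In the dorsal SCN it gave 0.47 ± 0.205, or 0.28 without dorsal light replicate 4. No fall from ventral through central to dorsal was present in this probe set.

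In the sham arrays the order of Tinf2 levels was dorsal, central, ventral. With each batch centred on its mean, the levels were -0.27 ± 0.25 (SD, n = 4) in dorsal, -0.85 ± 0.17 in central and -0.93 ± 0.20 in ventral sham arrays. Ventral and central SCN differed by -0.08 ± 0.185 (SE), less than their spread. Ventral was below dorsal by a difference of -0.66 ± 0.185, or 1.58-fold, with -0.41 in batch A and -0.91 in batch B. That difference did not pass the test over all probe sets (limma adjusted p = 0.131). It passed without dorsal light replicate 4, an array that is not among the sham arrays but enters the shared estimate of the spread (limma adjusted p = 0.0493), and with array weights (-0.59, limma adjusted p = 0.035). Central against dorsal gave -0.58 ± 0.185 (limma adjusted p = 0.208). The sham arrays also entered the light effect by which Tinf2 was chosen. These tests of its sham levels are therefore not independent of that choice. Among all probe sets, 0.871% passed for ventral against dorsal, 0.742% for ventral against central and 1.03% for central against dorsal sham arrays. The order was another by 1437166_at, with centred sham levels of -0.08 in central, -0.20 in dorsal and -0.28 in ventral SCN.

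After light the order of Tinf2 was the reverse. The batch-centred level was 1.42 ± 0.25 (SD, n = 4) in ventral, 0.33 ± 0.26 in central and 0.30 ± 0.29 in dorsal light arrays. Ventral light arrays exceeded the central ones by 1.09 and the dorsal ones by 1.12 (SE 0.185 each), and the central and dorsal light arrays differed by 0.03. The ventral SCN, which was close to the central SCN in sham arrays, thus stood above both other regions after light. In batch A the dorsal light mean of 5.73 was above the central one of 5.35. By 1437166_at the centred light levels were 0.46 in ventral, 0.27 in dorsal and -0.17 in central SCN, which is not the reverse of its sham order.

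**Figure D2:**
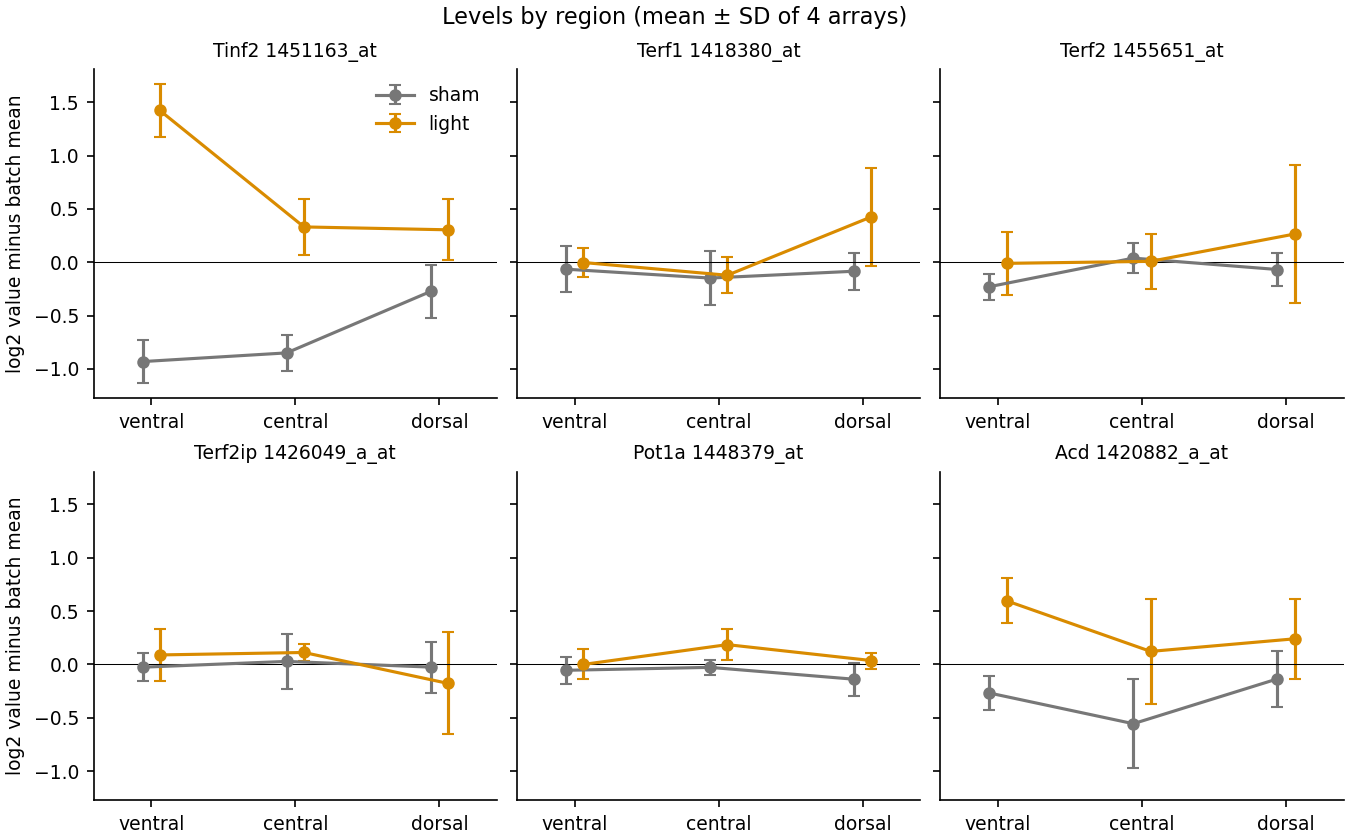
Batch-centred log2 level of each shelterin gene (1 probe set per gene) by region in sham and light arrays, with the mean and SD of 4 arrays. Tinf2 runs from -0.93 in ventral sham to 1.42 in ventral light arrays, and Acd from -0.27 to 0.60.

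Other cell types were compared with the same fit, because microdissected regions can differ in their makeup. Over 7 lists of cell type markers (45 tested genes), the median light effect in the ventral SCN lay between -0.09 and 0.10, and 2 genes passed, Prok2 and Gfap. In the dorsal SCN the medians lay between -0.28 and 0.46. Regions did differ. Of 7 oligodendrocyte genes 6 had a probe set, and their median was higher in ventral than in dorsal sham arrays by 1.14 and than in central ones by 1.99. The mean of these genes was 7.90 to 8.29 in ventral and 6.76 to 6.80 in dorsal sham arrays of batch A, and 8.91 to 9.28 against 8.11 to 8.18 in batch B. This list ran opposite to Tinf2 between ventral and dorsal sham arrays. A list of 5 general neuron genes ran the same way as Tinf2 by its median of -0.22, though 2 of the 5 genes were above 0. The gene called was the synaptic vesicle gene Syt1 at -2.10 ± 0.169. The mean of the 5 genes was 8.30 to 8.36 in ventral and 8.68 to 8.79 in dorsal sham arrays of batch A, and 9.72 to 9.79 against 10.29 to 10.44 in batch B. The list of SCN neuron genes ran opposite to Tinf2, with a median of 0.12 and 3 genes called higher in ventral arrays, Vip, Grp and Calb2. Of 7 astrocyte genes, Aqp4 was higher in ventral arrays, and the list median was 0.41. Microglia genes (median -0.12, 1 of 7 above 0) and ependymal genes (-0.10, 1 of 3 above 0) also ran the same way as Tinf2. Endothelial and mural genes ran opposite (0.07, 5 of 7 above 0). No gene of these last lists was called for ventral against dorsal sham arrays. The part of any of these lists in the Tinf2 difference was not tested. Probe sets of the ependymal marker Foxj1 and of the red cell genes Hba-a1 and Alas2 were below the filter.

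Acd, whose product TPP1 is bound directly by TIN2, was the partner gene with the largest light effect in the ventral SCN. It has a single probe set, 1420882_a_at. In the ventral SCN the sham arrays held 3.49 and 3.44 in batch A and 6.21 and 5.83 in batch B. The ventral light arrays held 4.55 and 4.54 in batch A and 6.76 and 6.59 in batch B. Light lay above sham in both batches, which was also so for 5.14% of all tested probe sets. The ventral difference of Acd was 0.86 ± 0.242 (95% interval 0.36 to 1.37), or 1.82-fold, and did not pass the test over all probe sets (limma adjusted p = 0.212).

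Acd in the central SCN differed between batches. Its sham arrays held 3.78 and 3.25 in batch A and 5.28 and 5.51 in batch B, and its light arrays 3.51 and 3.44 in batch A and 6.88 and 6.71 in batch B. The arrays overlapped in batch A, at a difference of -0.04, and the difference in batch B was 1.40. Light was thus not above sham in both batches, as it was for 2.86% of all tested probe sets. Over both batches the central difference was 0.68 ± 0.242 (limma adjusted p = 0.577). In the dorsal SCN, sham values of 3.81, 3.56, 6.35 and 5.78 and light values of 4.41, 3.51, 6.53 and 6.56 (replicates 1 to 4) overlapped in batch A, with a difference of 0.38 ± 0.242 (limma adjusted p = 0.597). Without dorsal light replicate 4 the dorsal difference was 0.35 ± 0.260. The ventral and dorsal light effects of Acd differed by 0.49 ± 0.342 (95% interval -0.22 to 1.20; limma adjusted p = 0.975).

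Averaged over the regions of each replicate number, light moved Acd by 0.64 ± 0.156 (0.43 in batch A and 0.84 in batch B). This did not pass the test either (limma adjusted p = 0.263). The call depended on the fit. Acd passed in the ventral SCN with array weights (limma adjusted p = 0.017) and when the ventral arrays were fitted alone (limma adjusted p = 0.0375), and the average passed with array weights (limma adjusted p = 0.0169). Over the fits that left out 1 array each, the ventral value ran from 0.80 to 0.95, with limma adjusted p from 0.118 to 0.625.

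**Figure D3:**
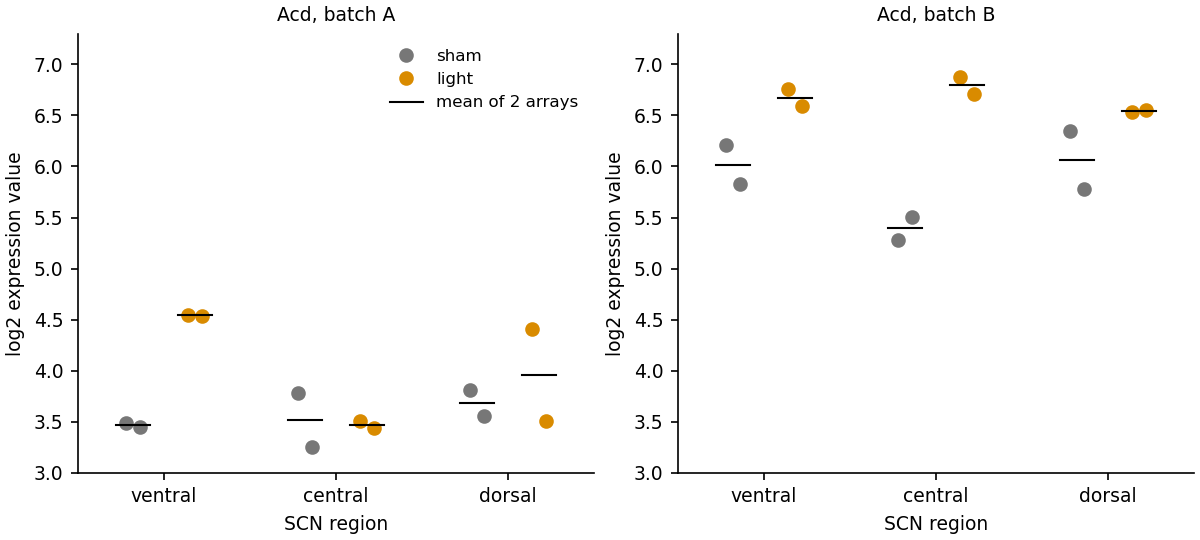
Deposited log2 value of Acd on each of the 24 arrays by region and treatment, with batch A on the left and batch B on the right. Points are arrays and bars the mean of 2 arrays. The ventral light arrays at 4.55, 4.54, 6.76 and 6.59 lie above the ventral sham arrays of their batch, as was so for 5.14% of all tested probe sets. The central arrays overlap in batch A.

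Pot1a, the single-strand binding subunit that TPP1 carries, had 4 probe sets, of which 1440568_at was over 4 on 1 array and was not tested. The brightest, 1448379_at, held 7.57, 7.50, 9.41 and 9.30 on the ventral sham arrays and 7.76, 7.81, 9.30 and 9.12 on the ventral light arrays (replicates 1 to 4). The groups overlapped in batch B, and the difference was 0.05 ± 0.130. It was 0.21 in the central and 0.17 in the dorsal SCN, and the dorsal value was 0.21 without dorsal light replicate 4. A second probe set, 1432077_at, gave 0.02 ± 0.449 in ventral and 0.29 in central SCN. Its dorsal value of -0.53 turned to 0.22 without dorsal light replicate 4, which held 4.35 where replicate 3 of that group held 7.75. The third, 1456369_at, was dim, over 4 on 12 arrays and at most 3.16 in batch A. It gave -0.10, 0.29 and 0.33 in ventral, central and dorsal SCN, and 0.43 in dorsal SCN without dorsal light replicate 4. Its sham level was higher in ventral than in dorsal SCN by 0.48 (unadjusted p = 0.0337 and adjusted p = 0.654 in limma).

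Terf1 encodes TRF1, a subunit that binds the telomere repeat and is known as a negative regulator of telomere length. Its brightest probe set, 1418380_at, gave 0.06 in ventral and 0.03 in central SCN (SE 0.195). In the dorsal SCN the sham arrays held 4.23, 3.95, 6.58 and 6.82 and the light arrays 4.24, 4.16, 7.28 and 7.94. The dorsal difference of 0.51 ± 0.195 (limma adjusted p = 0.484) was 0.11 in batch A and 0.91 in batch B, and 0.28 without dorsal light replicate 4. The other Terf1 probe sets, 1431332_a_at and 1443527_at, were dim, each over 4 on 12 arrays and at most 3.14 and 3.70 in batch A. They gave 0.11 and -0.06 in ventral, 0.01 and -0.14 in central and 0.15 and 0.25 in dorsal SCN. Without dorsal light replicate 4 they gave 0.04 and 0.41 in dorsal SCN.

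Terf2 encodes TRF2, the subunit that forms and guards the telomere loop. Its brightest probe set, 1455651_at, held 6.48, 6.22, 7.84 and 7.94 on ventral sham arrays and 6.73, 6.37, 7.82 and 8.45 on ventral light arrays, which overlapped in both batches. The light effects of this probe set were 0.22, -0.03 and 0.33 in ventral, central and dorsal SCN (SE 0.233). The dorsal value was 0.01 without dorsal light replicate 4, whose 9.33 was far above the 8.01 of replicate 3. Terf2 probe set 1421147_at gave 0.02, -0.18 and -0.26. The dim 1459650_at gave 0.02, 0.64 and -0.17, and its central value (SE 0.386) was -0.09 in batch A and 1.38 in batch B. Without dorsal light replicate 4 the dorsal value of 1459650_at turned to 0.29, and that of 1421147_at was -0.12.

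Terf2ip encodes RAP1, which rides on TRF2. Its brightest probe set, 1426049_a_at, held 6.35, 6.65, 9.03 and 9.06 on ventral sham arrays and 6.30, 6.65, 9.31 and 9.28 on ventral light arrays. The groups overlapped in batch A, so light was not above sham in both batches, as it was for 5.14% of all tested probe sets. The light effects were 0.11, 0.08 and -0.15 in ventral, central and dorsal SCN (SE 0.202), and the dorsal one was 0.10 without dorsal light replicate 4. Probe set 1419381_at gave -0.21, 0.14 and 0.15, and its dorsal value was 0.19 without dorsal light replicate 4. Probe set 1456400_at, over 4 on 3 arrays, was not tested.

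Across the 12 tested probe sets of the 5 partner genes, none passed in limma in the ventral SCN, where 0.391% of all probe sets did. Likewise 0 of 12 passed in the central (0.239% of all), dorsal (0.0839%) and averaged comparison (0.213%). At an unadjusted p under 0.05 there was 1 of 12 in each of these, Acd in the ventral, central and averaged and Terf1 in the dorsal comparison, against 4.89%, 5.99%, 6.83% and 9.07% of all probe sets. The median light effect of the 12 was 0.04 in ventral, 0.11 in central and 0.16 in dorsal SCN, where the medians of all probe sets were -0.01, -0.04 and -0.00. Above 0 were 9, 9 and 8 of the 12, against 47.1%, 43.1% and 49.8% of all. Without dorsal light replicate 4, none of the 12 had an unadjusted p under 0.05 in the dorsal SCN, none passed in limma, and 11 were above 0, against 55.2% of all. The upper 95% bound of the ventral effect reached at most 1.37 for a partner probe set. A fall from ventral through central to dorsal by value alone was present in 3 of 12, one each of Acd, Terf2 and Terf2ip, against 22.3% of all probe sets. Without dorsal light replicate 4 it was present in 1 of 12, Acd, against 15.6% of all. The light effects of ventral and dorsal SCN differed in 0 of 12 by limma, at a lowest adjusted p of 0.975, and 0 of 12 had an unadjusted p under 0.05, against 3.31% of all.

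**Figure D4:**
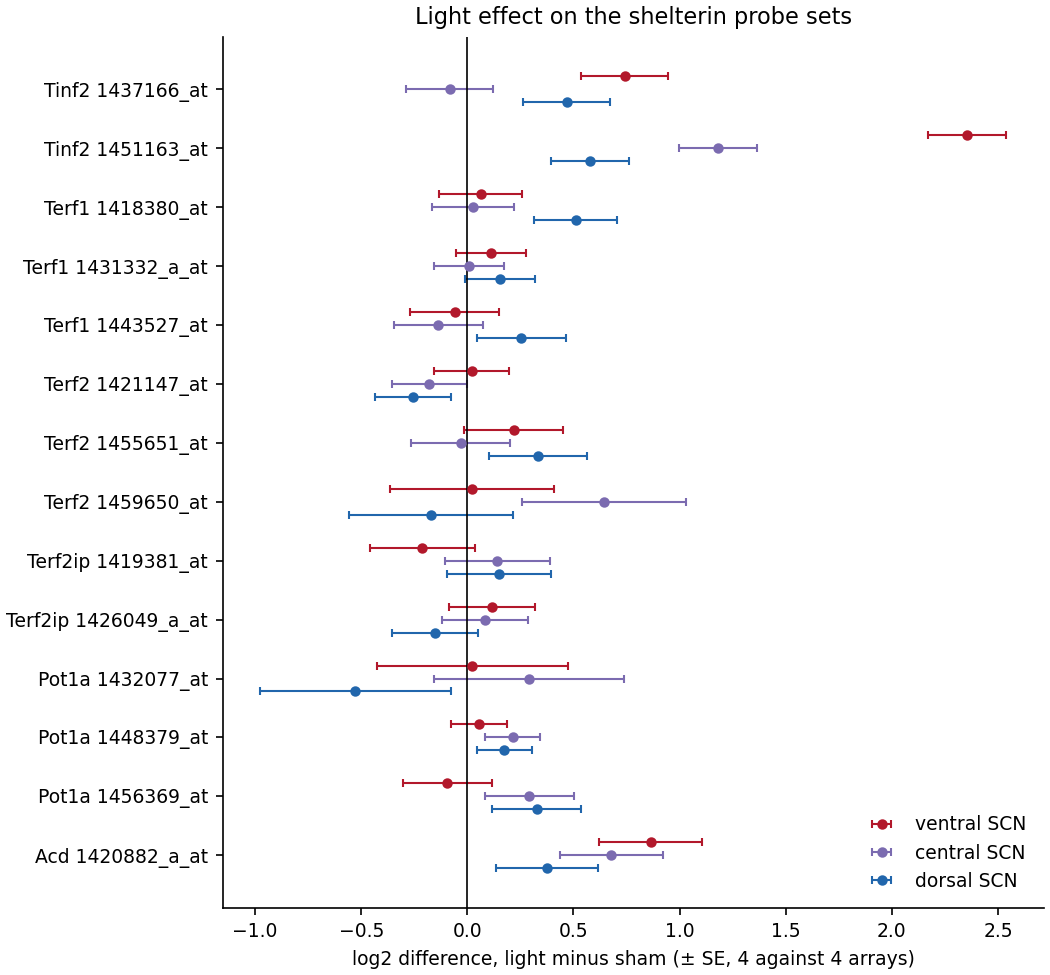
Log2 light effect (light minus sham) of the 14 tested shelterin probe sets in each region, with bars of 1 SE from the limma fit. Tinf2 1451163_at stands at 2.35 in the ventral SCN, while the partner probe sets lie between -0.21 and 0.86 there.

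Levels of the partner genes were also compared between regions in the sham arrays. None of the 12 probe sets passed for ventral against dorsal, ventral against central or central against dorsal in limma, and 1 of 12, 0 of 12 and 0 of 12 had an unadjusted p under 0.05, against 6.62%, 5.49% and 8.33% of all probe sets. The lowest adjusted p was 0.654 for ventral against dorsal and 0.739 for central against dorsal, the latter for Acd at -0.42 ± 0.242. With standard errors from 0.130 to 0.449, small differences in these genes were not detectable with 4 arrays in a group.

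Beyond the 6 genes above, 60 further telomere genes were listed, among them Pot1b, telomerase and its assembly factors, the CST complex that fills in the overhang, regulators of TRF1, TRF2 and TIN2, and the damage kinases that shelterin restrains. Of these, 57 had a tested probe set, and Tert, the catalytic subunit of telomerase, was below the filter. None of the 57 passed for light in limma in any region or for the average, and 0, 3, 6 and 2 had an unadjusted p under 0.05 in the ventral, central, dorsal and averaged comparison, against 4.89%, 5.99%, 9.07% and 6.83% of all probe sets. Their median ventral light effect was -0.05, with 21 of 57 above 0, where the median of all probe sets was -0.01 and 47.1% were above 0. Prkdc, the catalytic subunit of the DNA-dependent protein kinase, had the smallest p at -0.59 ± 0.295, followed by Fen1, the flap nuclease of lagging-strand synthesis, at -0.30 ± 0.180 and the checkpoint kinase gene Chek1 at 0.52 ± 0.329 (limma adjusted p of at least 0.99 for each). Pot1b, the paralog of Pot1a, gave -0.35, -0.42 and -0.11 in ventral, central and dorsal SCN, and is not counted among the partner genes here.

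By sublist, 4 of 11 telomerase genes, 2 of 13 CST and replication genes, 9 of 16 regulators and 6 of 16 damage genes were above 0 in the ventral SCN, with medians of -0.04, -0.14, 0.03 and -0.05, against 47.1% above 0 and a median of -0.01 for all probe sets. The range over the 57 genes was -0.59 to 0.52.

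The genes beside Tinf2 on the chromosome were Mdp1, Nedd8 and Gmpr2 on one side and Tgm1, Rabggta and Dhrs1 on the other, by their order in RefSeq. Gmpr2 overlaps Tinf2 on the opposite strand in that annotation and was not analysed here, and Tgm1 was below the filter. The 4 measured neighbours gave ventral light effects of -0.31 ± 0.595 (Mdp1), -0.14 ± 0.184 (Nedd8), 0.00 ± 0.217 (Rabggta) and 0.48 ± 0.265 (Dhrs1), and none passed in any light comparison in limma. None had an unadjusted p under 0.05 in the ventral, central or dorsal SCN, against 4.89%, 5.99% and 9.07% of all probe sets. In the dorsal SCN 0 of 4 were above 0, at a median of -0.40, against 49.8% of all. The ventral effect exceeded the dorsal one in 4 of 4, at a median of 0.43, against 49.9% of all. For that difference 1 of 4 had an unadjusted p under 0.05 in limma, against 3.31% of all. Whether this is tied to the Tinf2 pattern was not tested.

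To place the Tinf2 pattern among other genes, its batch-centred values were correlated with those of 13494 genes over the 24 arrays, with 1 probe set per gene. The arrays share the light and sham groups, so this is a description and has no p. The 5 closest genes were Cdk11b (r = 0.917), the clock gene Per2 (0.894), Emd (0.890), Nptx1 (0.888) and Rheb (0.888). After subtraction of each region's sham mean within its batch, the closest were Ehd3 (0.926), Cdk11b (0.925), Wwtr1 (0.912), Per2 (0.910) and Med14 (0.901). Cdk11b and Per2 were in both sets.

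Like Tinf2, these genes had light effects that were largest in the ventral SCN. They were picked by likeness to Tinf2 over the same arrays, so this is not a separate result. Per2 gave 2.19, 1.48 and 1.27 in ventral, central and dorsal SCN, and Nptx1, which encodes a secreted synaptic protein, gave 3.33, 3.06 and 2.20. In batch A the ventral and dorsal effects of Per2 were close, at 1.88 and 1.83. Cdk11b gave 1.36, 0.76 and 0.46. Ehd3, an endocytic recycling gene, gave 1.41, 0.99 and 0.04. Among the shelterin genes, Acd was closest to Tinf2 (r = 0.771, rank 40), followed by Pot1a (0.277), Terf2ip (0.184), Terf1 (0.154) and Terf2 (0.107). After subtraction of the sham means, Acd stood at r = 0.699 (rank 143), Terf2ip at 0.321, Pot1a at 0.240, Terf2 at 0.103 and Terf1 at -0.04.

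**Figure D5:**
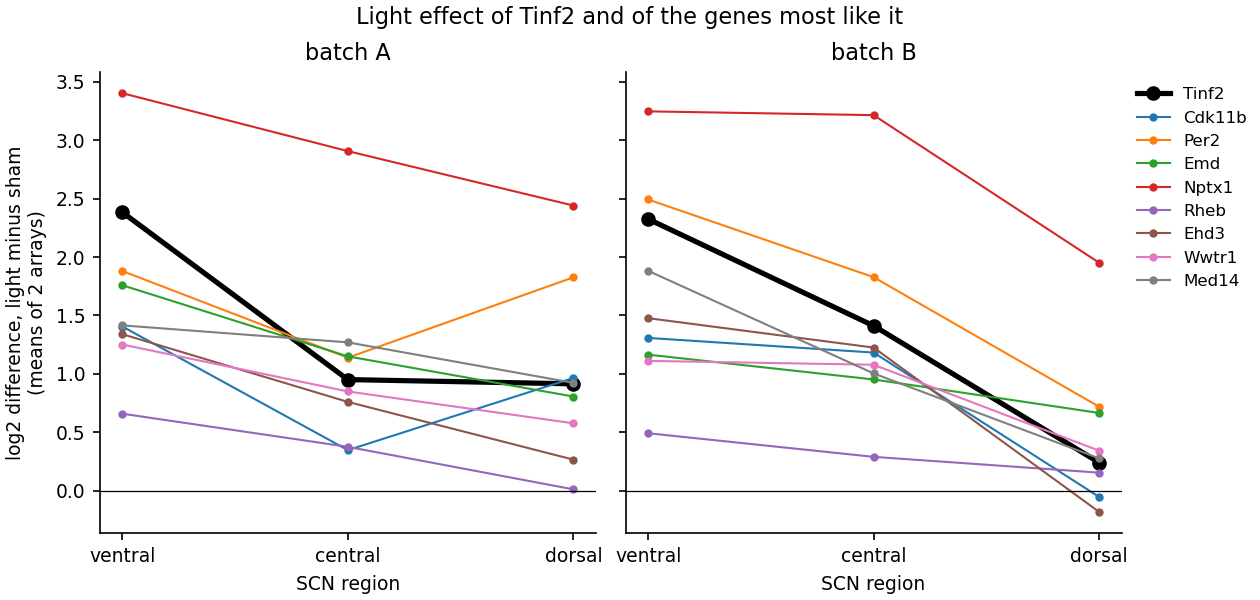
Log2 light effect (light minus sham, means of 2 arrays) of Tinf2, in black, and of the 8 genes with the most similar values, by region, with batch A on the left and batch B on the right. Tinf2 goes from 2.38 to 0.95 and 0.91 in batch A and from 2.33 through 1.41 to 0.24 in batch B, and in batch A Per2 and Cdk11b were higher in the dorsal (1.83 and 0.96) than in the central SCN (1.14 and 0.35).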

How the data were processed

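Gene expression in 24 laser-dissected SCN samples was measured with 1 Affymetrix mouse array each. The deposited table holds the authors' log2 values for 45101 probe sets. GCRMA 2.32.0, MAS5 and R 3.0.2 are the tools listed, per the submitters' processing notes, and their roles and the normalization of the batches were not stated. Values of both batches are therefore not on 1 scale. Groups, replicate numbers and batches were taken from the labels. The members and gene lists, with the tests, were chosen with earlier results of these data known.

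Gene names came from GEO's annotation of the array: 34945 probe sets have 1 symbol, 932 several and 9160 none, and 64 are controls. All 30983 probe sets with a log2 value over 4 on at least 4 arrays were fitted with limma 3.58.1 in R 4.3.3 (6 group means and batch, two-sided moderated statistics, Benjamini-Hochberg adjustment over all of them, called at an adjusted p under 0.05). Residual degrees of freedom were 17, and the prior added 4.8. The averaged light effect was fitted on 8 composites, the mean of the 3 regions for each treatment and replicate number, with 5 residual degrees of freedom. Differences are light minus sham, or the first region minus the second. Correlation used 1 probe set per gene. The scripts were tested on simulated data. The number of arrays limits the precision.

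Same-numbered arrays deviated together: in each batch all 15 pairs of groups correlated over 0.1, from 0.224 to 0.640 for replicates 1 and 2 and from 0.184 to 0.450 for replicates 3 and 4. The numbers are in the labels, which do not say what they share. By that check the numbers pair the samples. With the replicate number as a block, 120 probe sets in place of 74 passed in the central, 44 in place of 26 in the dorsal and 116 in place of 66 in the averaged light effect, and none of the 12 partner probe sets passed.

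The rule for named genes takes every shelterin probe set, the 3 listed telomere genes with the smallest ventral p, the 5 genes most like Tinf2 by each measure, and its neighbours. Alternatives were a fit without batch, the block, other filters and scalings, array weights, 1 batch alone, the compared groups alone, 1 probe set per gene and leaving out each array.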

Additional observations from a re-analysis of the deposited data

Results flagged for a closer look

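In 5 of 84 groups of 4 arrays, 1 shelterin value stood apart by Dixon's criterion on batch-centred values. Chance flags about 1 group in 20. The values on the log2 scale were 7.81 for Terf2 1421147_at on central sham replicate 3, the highest of its group, and 8.14 for Terf2ip 1426049_a_at on dorsal light replicate 4, the lowest. Pot1a 1432077_at was highest on ventral light replicate 3 at 7.77. Terf2 1455651_at was highest on dorsal sham replicate 1 at 6.71, and Terf2 1459650_at on ventral light replicate 3 at 5.90. Dorsal light replicate 4 is also the array with the large gap between Gapdh probe sets.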

How the results depend on the processing

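The ventral and central light effects of Tinf2 kept their direction in every alternative that was run. Over the fits that left out 1 array each they ran from 2.23 to 2.44 and from 1.09 to 1.26, the dorsal one from 0.45 to 0.70, and the ventral-minus-dorsal difference from 1.65 to 1.90. Within 1 batch the dorsal effect moved to 0.91 (A) and 0.24 (B), and the ventral-minus-dorsal difference to 1.47 (A) and 2.09 (B).

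The count of partner probe sets called rose from 0 to 1, Acd in each case, for the ventral effect with array weights and with the ventral arrays alone, and for the averaged effect with array weights. It was also 1 for the averaged effect in a fit on all 24 arrays (Acd adjusted p = 0.0131), and in that fit without dorsal light replicate 4 (0.0117), both chosen after seeing the data. With the replicate block none passed, and the adjusted p of Acd was 0.136 in the ventral and 0.116 in the averaged effect. It changed no other call on a shelterin probe set. For shelterin levels in sham arrays, ventral against dorsal went from 0 to 1 call (Tinf2) with array weights, and from 0 to 1 when arrays were left out, the array being dorsal light replicate 4. Ventral against central went from 0 to 1 when averaged over sham and light arrays, where Tinf2 reversed from -0.08 to 0.51 (adjusted p = 0.0347), because the light arrays enter. Tinf2 was chosen by its light effect in these same arrays, so these calls on it are not independent of that choice.

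The background counts moved more. In the ventral light effect 121 probe sets passed, with 0 without the batch term, 544 with array weights, 66 without ventral sham replicate 4 and 258 without dorsal light replicate 4. In the central effect 74 passed, with 0 without the batch term, 244 with array weights, 36 without central sham replicate 2 and 193 without dorsal light replicate 4. In the dorsal effect 26 passed, with 0, 124 with array weights, 13 without dorsal sham replicate 1 and 41 without dorsal light replicate 4. In the averaged effect 66 passed, with 0 to 1205 over the alternatives and 9 without sham replicate 2 in all regions. Sham regions gave 270 (ventral against dorsal; 3 to 950), 230 (ventral against central; 0 to 889) and 318 (central against dorsal; 0 to 1243), and without dorsal light replicate 4 they gave 528, 484 and 692. The compared groups alone is the averaged fit itself and was not run for it.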
